A study of Mus musculus with 8 samples.

Results

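The genes described here are 6 matrix metalloproteinases (Mmp2, Mmp3, Mmp9, Mmp10, Mmp13 and Mmp14) and 3 tissue inhibitors of metalloproteinases (Timp1, Timp2 and Timp3) in irradiated LLC1 cells. They were chosen by the gene symbol printed for each probe in the array files, without use of the measured values, and make up 9 of the 21378 symbols there, with 12 probes in all. LLC1 is a Lewis lung carcinoma line that came from a lung cancer of a C57BL/6 mouse. Its cells were given X-rays and harvested 4 h after treatment, in 3 regimens. Cells received 2 Gy at once (2Gy, 3 arrays), 10 Gy at once (10Gy, 2 arrays) or 5 fractions of 2 Gy (5x2Gy, 3 arrays), which add up to 10 Gy. Each array held RNA of irradiated cells in the Cy5 channel and RNA of untreated LLC1 cells in the Cy3 channel, so that the untreated cells were measured on all 8 arrays. The dyes were not exchanged on any array, so irradiation and a dye effect particular to a gene cannot be told apart in the ratios to untreated cells. Replicate 3 of 10Gy was not analysed here, and the labels give no interval between fractions. The labels call the replicates of a regimen biological, but do not say whether the untreated RNA of different arrays came from separate cultures.

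Matrix metalloproteinases are zinc enzymes that cut proteins of the extracellular matrix and of the cell surface, and most are secreted as inactive precursors. The stromelysins MMP3 and MMP10 cut a broad range of matrix proteins and can activate other metalloproteinases, the gelatinases MMP2 and MMP9 cut denatured and basement membrane collagen, MMP13 is a collagenase, and MMP14 is anchored in the plasma membrane. TIMPs bind the active site of these enzymes and block them, and TIMP2 also takes part in the activation of pro-MMP2 by MMP14 at the cell surface. In tumours, these proteins are known for their part in invasion and in the release of growth factors from the matrix.

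The 8 arrays fell into 2 sets by the name of their scanned image, which is read here as 2 slides. The 2Gy arrays and 10Gy replicate 1 were on slide 1, and the 5x2Gy arrays and 10Gy replicate 2 on slide 2. No slide held both 2Gy and 5x2Gy arrays, so slide and regimen cannot be told apart in that comparison. Over all genes tested the 2 10Gy arrays stood apart from each other, with a correlation of their log2 ratios of 0.43, while 10Gy replicate 2 and the 5x2Gy arrays gave 0.75 to 0.86 (across 13311 genes, which are not independent replicates). As a check of the labels, the p53 target Ccng1 rose in all 3 regimens, with log2 ratios of 1.12, 2.00 and 1.64 after 2Gy, 10Gy and 5x2Gy (limma adjusted p = 0.0028, 0.00036 and 0.00019). Its fellow targets Cdkn1a and Mdm2 rose after 10Gy (2.598 and 2.14) and 5x2Gy (1.27 and 0.67; limma adjusted p = 0.0017, 0.00099, 0.012 and 0.044), and gave 0.88 and 0.48 after 2Gy (0.087 and 0.18). Of the cell type markers, all 6 mesenchymal ones (Vim, Cdh2, Zeb1, Zeb2, Twist1 and Snai2) gave signal above the negative controls in the untreated channel of all 8 arrays. Among the 6 epithelial markers Krt8, Krt18 and Krt19 did so, while Cdh1 and Epcam did on none, and of the 4 alveolar markers none did so on all 8. Of the 6 leukocyte and macrophage markers, Ptprc, Adgre1, Csf1r and Itgam were not above the negative controls on any array in either channel. Cd14 and Cd68 were above them on all 8 arrays in both channels, with untreated signals of 2485 to 3890 and 602.5 to 974.1.

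Of the 9 genes, 7 gave a signal that could be tested. A spot was counted as above background when its mean signal exceeded the median of the array's negative controls by 2.6 robust standard deviations, a threshold of 236 to 447 in the irradiated channel and 346 to 451 in the untreated channel. A gene was tested when 1 of its probes passed this on at least 2 arrays in the same channel. Mmp2 and Mmp13 did not pass it in either channel of any array. Mmp2 gave 149 to 333 in irradiated cells and 258 to 334 in untreated cells, and Mmp13 gave 102 to 333 in irradiated cells and 231 to 400 in untreated cells. The level of both genes was therefore not measurable at this sensitivity, and no difference is given for them. Timp2, Timp1, Mmp14 and Mmp3 were bright on all arrays, with untreated signals of 8192 to 18628, 8069 to 11986, 6016 to 9915 and 3566 to 5043. Mmp9, Mmp10 and Timp3 lay close to the threshold, with untreated signals of 377 to 506, 365 to 577 and 360 to 486. Signals of different probes are not compared as levels, since each probe binds with its own efficiency.

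**Figure D1:**
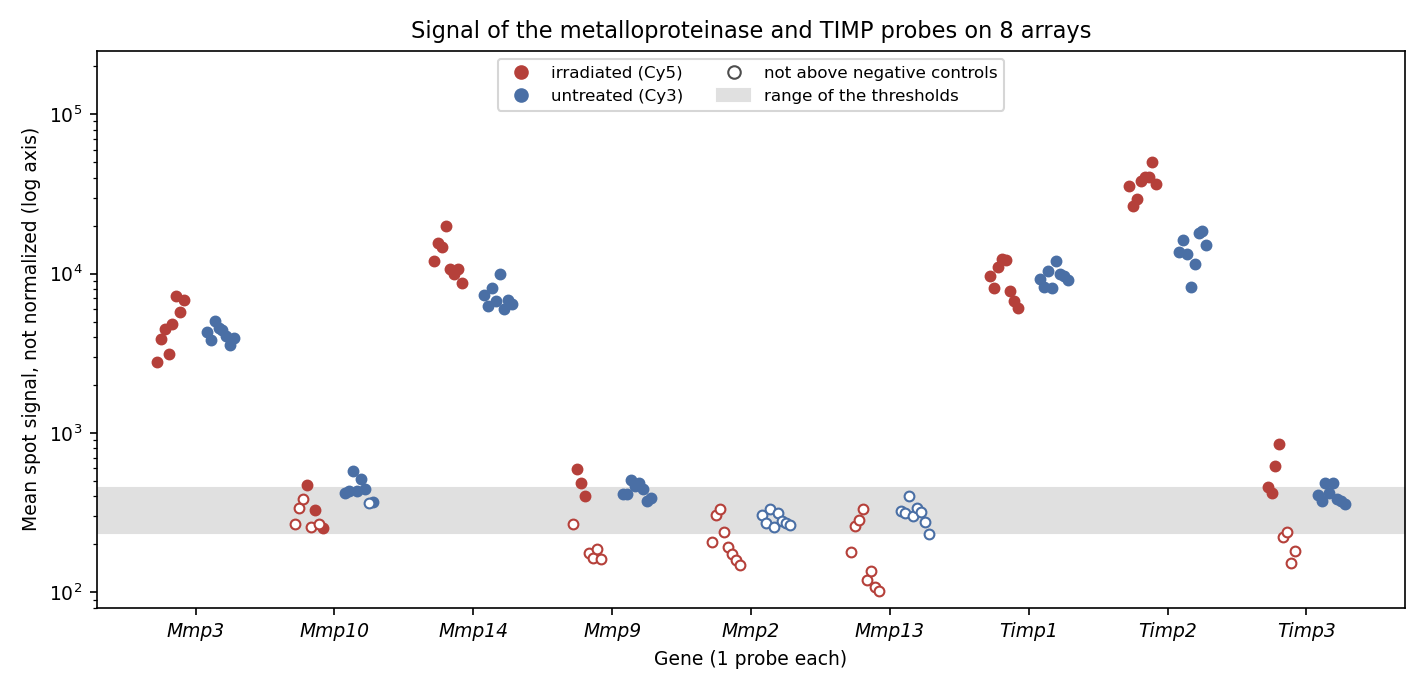
Mean spot signal before normalization (log axis) of 1 probe for each of the 9 genes, with the irradiated channel to the left of the untreated channel and the arrays of each in the order 2Gy, 10Gy and 5x2Gy. Open symbols are spots not above the negative controls of their array and the grey band spans the thresholds of all arrays and channels. Mmp3, Mmp14, Timp1 and Timp2 lie above the band on all 8 arrays, and all symbols of Mmp2 and Mmp13 are open.

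All changes below are log2 ratios of irradiated over untreated cells after background correction and normalization within each array, with the standard error (SE) of a limma fit over all 8 arrays. Adjusted p-values are limma's with the Benjamini-Hochberg correction over 13311 genes, and a gene was called at an adjusted p under 0.05. After 2Gy, 3 of the 7 genes tested were called (1 higher, 2 lower), when 17.1% of all genes were called (9.09% higher and 8.04% lower). After 10Gy, 2 of 7 were called, both higher, against 28.4% of all genes (12.5% higher and 16% lower). After 5x2Gy, 5 of 7 were called (4 higher, 1 lower), against 41.2% of all genes (17.7% higher and 23.5% lower). The median log2 ratio of the 7 genes was -0.0009 after 2Gy, 0.06 after 10Gy and 0.35 after 5x2Gy, beside -0.004, -0.06 and -0.02 over all genes tested. In bulk RNA of this kind, a change in the share of cells that express a gene and a change in RNA per cell cannot be told apart.

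**Figure D2:**
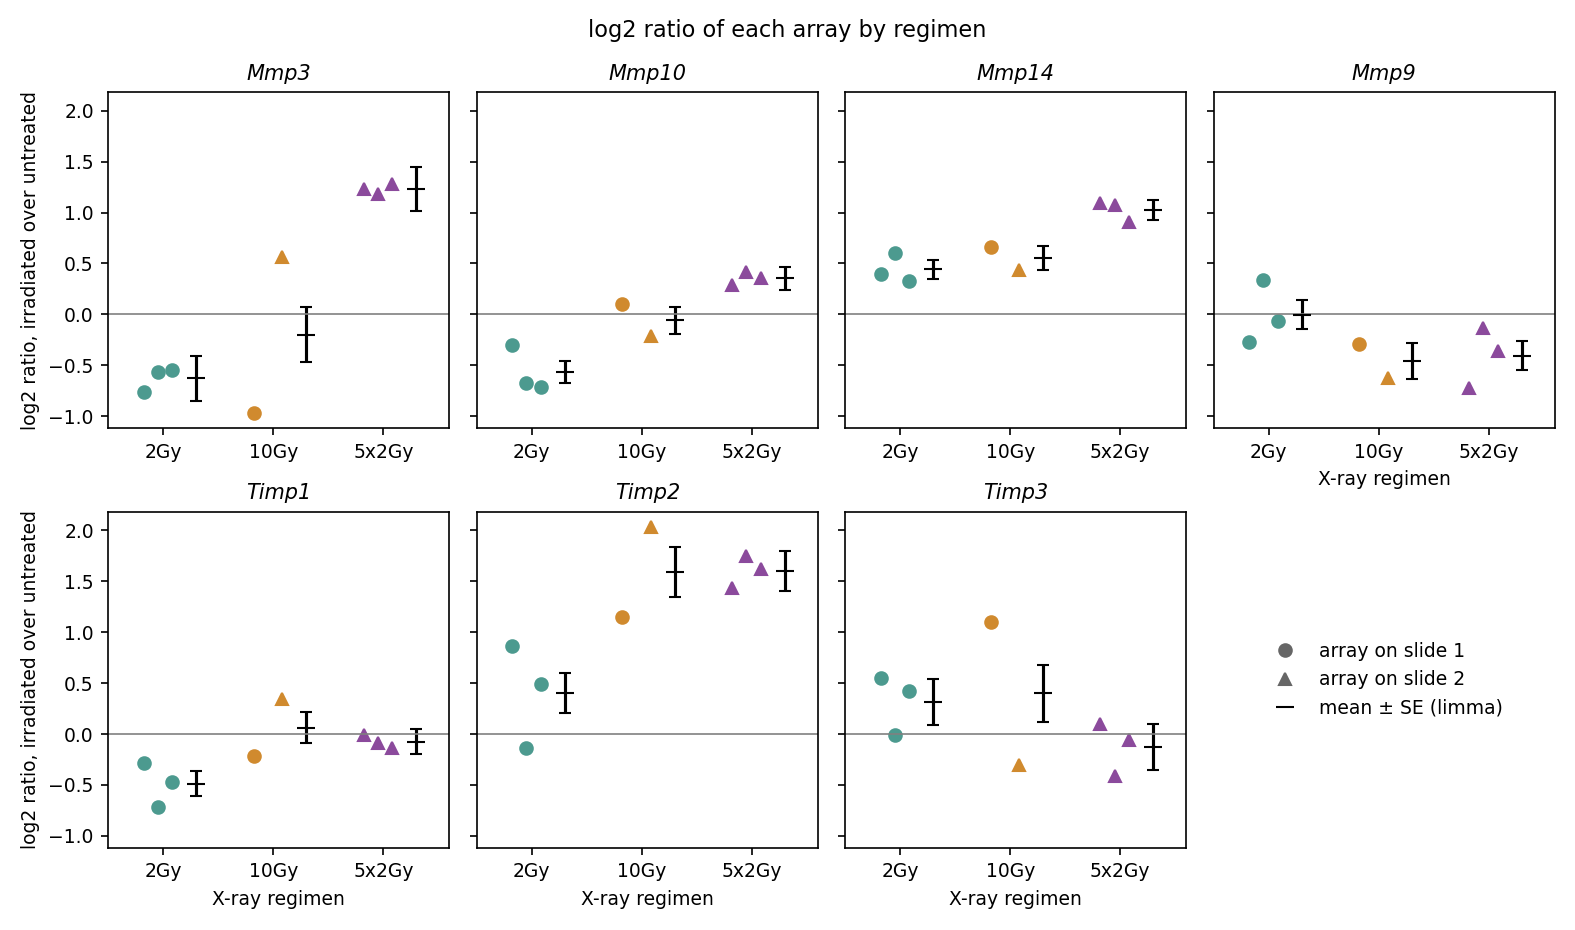
Normalized log2 ratio of irradiated over untreated cells on each array (y axis) by X-ray regimen (x axis) for the 7 genes tested, with circles for arrays of slide 1 and triangles for arrays of slide 2. Bars give the limma mean ± SE (3, 2 and 3 arrays). The 5x2Gy arrays of Mmp3 lie at 1.19 to 1.28 and the 2Gy arrays at -0.76 to -0.55, and the 2 10Gy arrays of Mmp3 lie on opposite sides of 0.

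Mmp3 (stromelysin-1) rose after 5x2Gy and had its largest spread between arrays after 10Gy. Its log2 ratios were -0.76, -0.57 and -0.55 on the 2Gy arrays, -0.97 and 0.57 on the 10Gy arrays, and 1.23, 1.19 and 1.28 on the 5x2Gy arrays. All 3 arrays after 5x2Gy were above 0 and all 3 after 2Gy were below 0, with no overlap between these regimens. Before normalization, Mmp3 gave 7231, 5770 and 6839 in 5x2Gy cells, against 4069, 3566 and 3972 in the untreated cells of the same arrays. The rise after 5x2Gy was 1.23 ± 0.22 (SE, n = 3; 2.35-fold; adjusted p = 0.0024 by limma). The change after 2Gy was -0.62 ± 0.22 (SE, n = 3; limma adjusted p = 0.079) and was not called, although 6 of 25 alternatives called it, scale normalization (-0.80; 0.019) and the fit without the 10Gy arrays (0.00015) among them. After 10Gy the mean was -0.20 ± 0.27 (limma adjusted p = 0.61), and with 1 of the 2 arrays left out it was -0.97 (without replicate 2; limma adjusted p = 0.00011) or 0.57 (without replicate 1; 0.0071), where the lone array is assumed to vary like those of the other regimens. All 4 arrays of slide 1 were below 0 for Mmp3 and all 4 of slide 2 were above 0, the 10Gy arrays included. With slide as a block the change of Mmp3 after 2Gy turned to 0.14 (limma adjusted p = 0.37). The rise after 5x2Gy was then 0.46 (0.01), and with slide as a random block it was 0.69 (limma adjusted p = 0.19). The 2 10Gy arrays, which set the slide term of the block fit, differed by 1.53 for Mmp3.

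Mmp10 (stromelysin-2) fell after 2Gy and rose after 5x2Gy, at signals close to background. The 2Gy arrays gave log2 ratios of -0.30, -0.67 and -0.71, the 10Gy arrays 0.10 and -0.21, and the 5x2Gy arrays 0.28, 0.42 and 0.36. The 3 regimens did not overlap, in the order 2Gy, 10Gy and 5x2Gy from low to high. In irradiated cells Mmp10 was above the negative controls on 0 of 3 arrays after 2Gy, 1 of 2 after 10Gy and 2 of 3 after 5x2Gy, and in untreated cells on 7 of 8. Its signal before normalization was lower in irradiated than in untreated cells on 7 of 8 arrays, the 5x2Gy arrays included, so the sign after 5x2Gy differed before and after normalization. The fitted change was -0.56 ± 0.11 after 2Gy (SE, n = 3; limma adjusted p = 0.0093), where irradiated cells have only an upper bound. Set against the lowest signal that counts as above background, Mmp10 was at least 1.3-fold lower in 2Gy cells than in untreated cells. The change after 5x2Gy was 0.35 ± 0.11 (SE, n = 3; limma adjusted p = 0.027), and after 10Gy it was -0.06 ± 0.13 (n = 2; limma adjusted p = 0.78). The call after 2Gy was lost without 2Gy replicate 2 or 3 (limma adjusted p = 0.086 and 0.098) and with slide as a random block (0.22). The call after 5x2Gy was lost without any single 5x2Gy array (limma adjusted p = 0.08 to 0.13), with scale normalization (0.077) and with slide as a random block (0.24).

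Mmp3 and Mmp10 lie in a block of 10 neighbouring metalloproteinase genes on chromosome 9, in the order Mmp13, Mmp12, Mmp1b, Mmp3, Mmp1a, Mmp10, Mmp8, Mmp27, Mmp20 and Mmp7. Probes for 8 of the 10 were on the array, and Mmp3 and Mmp10 were the 2 with a probe above background. The promoter sequences of the genes are shown because these 2 neighbours both lay above 0 after 5x2Gy and below 0 after 2Gy on every array. Of the 9 genes, 7 had an entry in the RefSeq table of promoters (GRCm38.p6), all but Mmp2 and Mmp9. The letters TGACTCA, a binding sequence of AP-1, the dimer of Fos and Jun proteins, were searched on both strands in the 300 bases around each annotated start, and TATAAA was searched on the strand of the gene. Capitals mark these letters (TGAGTCA on the opposite strand) in the 120 bases before the start, at chr9:7445702-7445821 (Mmp3), chr9:7502222-7502341 (Mmp10) and chr9:7272394-7272513 (Mmp13), all on the plus strand.
Mmp3: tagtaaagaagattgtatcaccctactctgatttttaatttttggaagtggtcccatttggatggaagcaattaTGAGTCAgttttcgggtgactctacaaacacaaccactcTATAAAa
Mmp10: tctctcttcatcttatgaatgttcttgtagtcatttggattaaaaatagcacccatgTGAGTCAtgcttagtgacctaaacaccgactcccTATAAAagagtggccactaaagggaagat
Mmp13: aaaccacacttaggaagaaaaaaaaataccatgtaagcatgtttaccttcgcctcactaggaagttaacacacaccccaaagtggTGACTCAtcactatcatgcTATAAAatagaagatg
The AP-1 letters began 46 bases before the annotated start of Mmp3, 63 before that of Mmp10 and 35 before that of Mmp13, and TATAAA began 7, 29 and 16 bases before it. Of 32851 promoters in the table, 5.2% held the AP-1 letters on either strand and 8.32% held TATAAA on the strand of the gene. Mmp14, Timp1, Timp2 and Timp3 held neither. They held GGGCGG, the core of a GC box that Sp1 is known to bind, on 1 of the strands, as did 35.7% of all promoters, and it did not occur in the 3 promoters above. Capitals mark it in Mmp14 (chr14:54431478-54431597, plus strand) and in Timp2 (chr11:118355412-118355531, minus strand), the 2 genes called higher after both 10Gy and 5x2Gy.
Mmp14: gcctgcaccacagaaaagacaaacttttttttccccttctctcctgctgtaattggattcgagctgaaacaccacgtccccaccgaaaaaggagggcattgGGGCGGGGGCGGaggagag
Timp2: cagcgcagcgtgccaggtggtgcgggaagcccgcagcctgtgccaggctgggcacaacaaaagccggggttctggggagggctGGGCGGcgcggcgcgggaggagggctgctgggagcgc

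Mmp14, the membrane-anchored metalloproteinase, was higher in all 3 regimens. Its brighter probe gave log2 ratios of 0.40, 0.60 and 0.33 after 2Gy, 0.67 and 0.44 after 10Gy, and 1.09, 1.08 and 0.90 after 5x2Gy. All 8 arrays were above 0, and the 5x2Gy arrays lay above those of both single doses. Before normalization, the mean signal was 14143 in 2Gy cells against 7209 in untreated cells of the same arrays. For 5x2Gy it was 9792.5 against 6408.8, so the order of these 2 regimens differed before and after normalization. The normalized difference of 5x2Gy and 2Gy was above 0 in 25 of 25 alternatives (0.275 to 0.81). Mmp14 rose by 0.44 ± 0.10 after 2Gy (SE, n = 3; limma adjusted p = 0.015) and by 0.55 ± 0.12 after 10Gy (n = 2; limma adjusted p = 0.0084). The rise after 5x2Gy was 1.02 ± 0.10 (SE, n = 3; 2.03-fold; limma adjusted p = 0.00019). A second Mmp14 probe gave 0.40 after 2Gy (limma adjusted p = 0.044) and 0.86 after 5x2Gy (limma adjusted p = 7e-04, over 21494 probes). After 10Gy it gave 0.17 (limma adjusted p = 0.4), with 0.38 and -0.03 on the 2 arrays, so the probes disagreed on the call after 10Gy. With slide as a block the change after 2Gy was 0.33 (limma adjusted p = 0.068), and the call was also lost without any single 2Gy array (0.06 to 0.13) and with slide as a random block (0.43). The change after 10Gy was lost with array weights (limma adjusted p = 0.39), with slide as a random block (0.083) and with the 10Gy arrays alone in the fit (0.38).

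Mmp9 (gelatinase B) was dim, and the lower value after 5x2Gy is a bound without a fold. The arrays gave log2 ratios of -0.27, 0.33 and -0.06 for 2Gy, -0.29 and -0.63 for 10Gy, and -0.72, -0.13 and -0.35 for 5x2Gy. The arrays of all 3 regimens overlapped with one another, except 2Gy with 10Gy, and 1 array, of 2Gy, was above 0. In irradiated cells the probe was above the negative controls on 2 of 3 arrays after 2Gy, 1 of 2 after 10Gy and 0 of 3 after 5x2Gy, and in untreated cells on 8 of 8. After 5x2Gy the fit gave -0.40 ± 0.14 (SE, n = 3; limma adjusted p = 0.049), and the detection limit of the irradiated channel lay above the untreated level, so no fold change is given. The change was -0.0009 ± 0.14 after 2Gy (limma adjusted p = 1) and -0.46 ± 0.18 after 10Gy (n = 2; limma adjusted p = 0.081). The call after 5x2Gy was lost without any single 5x2Gy array (limma adjusted p = 0.057 to 0.31) and without 2Gy replicate 1 or 3 (0.053 and 0.075). It was also lost with median centring, scale normalization or either slide term (limma adjusted p = 0.068 to 0.62), and with the replicate number as a block (0.067). A second Mmp9 probe, printed in 10 spots per array, was not above the negative controls in either channel of any array.

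Timp2 had the largest rise of the 3 inhibitors, after 10Gy and after 5x2Gy. Ratios on the log2 scale were 0.86, -0.14 and 0.49 for 2Gy, 1.14 and 2.03 for 10Gy, and 1.43, 1.75 and 1.62 for 5x2Gy. All arrays of 10Gy and 5x2Gy lay above all 2Gy arrays, and the 5x2Gy arrays lay between the 2 10Gy arrays. The rise was 1.59 ± 0.24 after 10Gy (SE, n = 2; 3.01-fold; limma adjusted p = 0.0017) and 1.60 ± 0.20 after 5x2Gy (n = 3; 3.03-fold; limma adjusted p = 0.00049). After 2Gy the change was 0.41 ± 0.20 (n = 3; limma adjusted p = 0.18) and was not called, while 6 of 24 alternatives called it, with 0.94 under median centring in place of loess (limma adjusted p = 0.0066). Before normalization, Timp2 gave 40113, 50315 and 36634 in 5x2Gy cells, against 17958, 18628 and 15069 in the untreated cells of the same arrays. The Timp2 spot carried a non-zero flag, whose meaning is not given, on 7 of 8 arrays, and on the remaining one (5x2Gy replicate 2) its brightest median pixel value was 65158, near the top of a scanner's range. A signal at that limit is a lower bound, so the rise after 5x2Gy may be understated on that array, and the difference from 10Gy is open to the same limit. Without that array the rise was 1.52. With flagged spots left out Timp2 could therefore not be tested. The call after 10Gy was lost with array weights (limma adjusted p = 0.085) and the call after 5x2Gy with slide as a random block (0.054).

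Timp1 fell after 2Gy on the brighter of its probes, which disagreed. That probe gave log2 ratios of -0.28, -0.71 and -0.47 for 2Gy, -0.21 and 0.34 for 10Gy, and -0.01, -0.09 and -0.14 for 5x2Gy. All 2Gy arrays lay below all 5x2Gy arrays. Its spot carried a non-zero flag on every 2Gy and 10Gy array, so with flagged spots left out Timp1 could not be tested through this probe. The second probe, flagged on 2 arrays, was not put in its place. The change was -0.49 ± 0.12 after 2Gy (SE, n = 3; limma adjusted p = 0.026), 0.06 ± 0.15 after 10Gy (n = 2; 0.78) and -0.08 ± 0.12 after 5x2Gy (n = 3; 0.65). The second probe gave -0.24 after 2Gy (limma adjusted p = 0.18) and 0.44 after 10Gy (0.045), so each probe was called in a different regimen and in a different direction. The call after 2Gy was lost with median centring in place of loess (-0.10, limma adjusted p = 0.5) and with slide as a block (-0.21, 0.26) or a random block (0.57). It was also lost with the replicate number as a block (limma adjusted p = 0.066) and with the mean of both probes (0.051). Without any single 2Gy array (limma adjusted p = 0.053 to 0.19) or without 5x2Gy replicate 3 (0.052) it was lost as well.

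Timp3, an inhibitor that is held in the matrix, was not called in any regimen. The 2Gy arrays gave 0.55, -0.01 and 0.42 as log2 ratios, the 10Gy arrays 1.10 and -0.30, and the 5x2Gy arrays 0.10, -0.41 and -0.06. The 2 10Gy arrays spanned the values of all others except 5x2Gy replicate 2. In irradiated cells Timp3 was above the negative controls on 3 of 3 arrays after 2Gy, 1 of 2 after 10Gy and 0 of 3 after 5x2Gy, and in untreated cells on 8 of 8. The changes were 0.32 ± 0.23 after 2Gy (limma adjusted p = 0.35), 0.40 ± 0.28 after 10Gy (0.31) and -0.13 ± 0.23 after 5x2Gy (0.69), with 95% intervals of -0.19 to 0.83, -0.22 to 1.02 and -0.63 to 0.38. With slide as a block the change after 5x2Gy turned to 0.58 (limma adjusted p = 0.031), although no 5x2Gy array lay above 0.10. The slide term of that fit is carried over from the 2 10Gy arrays, where replicate 2 minus replicate 1 was -1.40.

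The comparison of regimens asks whether dose and fractionation gave different changes. Between 5x2Gy and 2Gy, 2 of the 7 genes were called, both higher after 5x2Gy, when 1.31% of all genes were called (0.383% higher and 0.932% lower). Mmp3 differed by 1.86 ± 0.31 on the log2 scale (SE; 3.62-fold; limma adjusted p = 0.036; 95% interval 1.16 to 2.55). Mmp10 differed by 0.91 ± 0.15 (SE; limma adjusted p = 0.036; 95% interval 0.57 to 1.26). Its irradiated signal was above background on no 2Gy array and on 2 of 3 5x2Gy arrays. The detection level of the irradiated channel was also higher on the 5x2Gy arrays (8.47 to 8.58 on the log2 scale) than on the 2Gy arrays (7.99 to 8.07). No minimum fold is therefore given. Both calls were lost when any 1 of the 2Gy or 5x2Gy arrays was left out (limma adjusted p = 0.1 to 0.2). In those fits 0% of all genes were called. The differences were then 1.787 to 1.895 for Mmp3 and 0.84 to 1.045 for Mmp10. For both genes, all arrays of 1 regimen lay on the same side of those of the other. Mmp14 (0.58 ± 0.14), Timp2 (1.19 ± 0.28) and Timp1 (0.41 ± 0.17) did not pass the threshold in this comparison (limma adjusted p = 0.061, 0.061 and 0.18). They passed it when only the 2Gy and 5x2Gy arrays were fitted (limma adjusted p = 0.0056, 0.0037 and 0.03), where 30.2% of all genes were called.

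Between 10Gy and 2Gy none of the 7 genes was called by limma, when 2.58% of all genes were (1.04% higher and 1.53% lower), and 3 had an unadjusted p under 0.05, as did 20.5% of all genes. Timp2 differed by 1.18 ± 0.31 (limma adjusted p = 0.079; 95% interval 0.48 to 1.89). Between 5x2Gy and 10Gy, the 2 ways of giving 10 Gy in all, limma called none of the 7 genes and 0% of all genes, although 2234 genes (16.8%), 3 of the 7 among them, had an unadjusted p under 0.05. Mmp3 differed by 1.43 ± 0.35 (limma adjusted p = 0.19; 95% interval 0.65 to 2.21), Mmp14 by 0.47 (0.22; 0.13 to 0.81) and Mmp10 by 0.41 (95% interval 0.02 to 0.79). For Timp2 the difference was 0.01, with a 95% interval of -0.69 to 0.71, wide enough to hold a 1.5-fold difference in either direction.

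**Figure D3:**
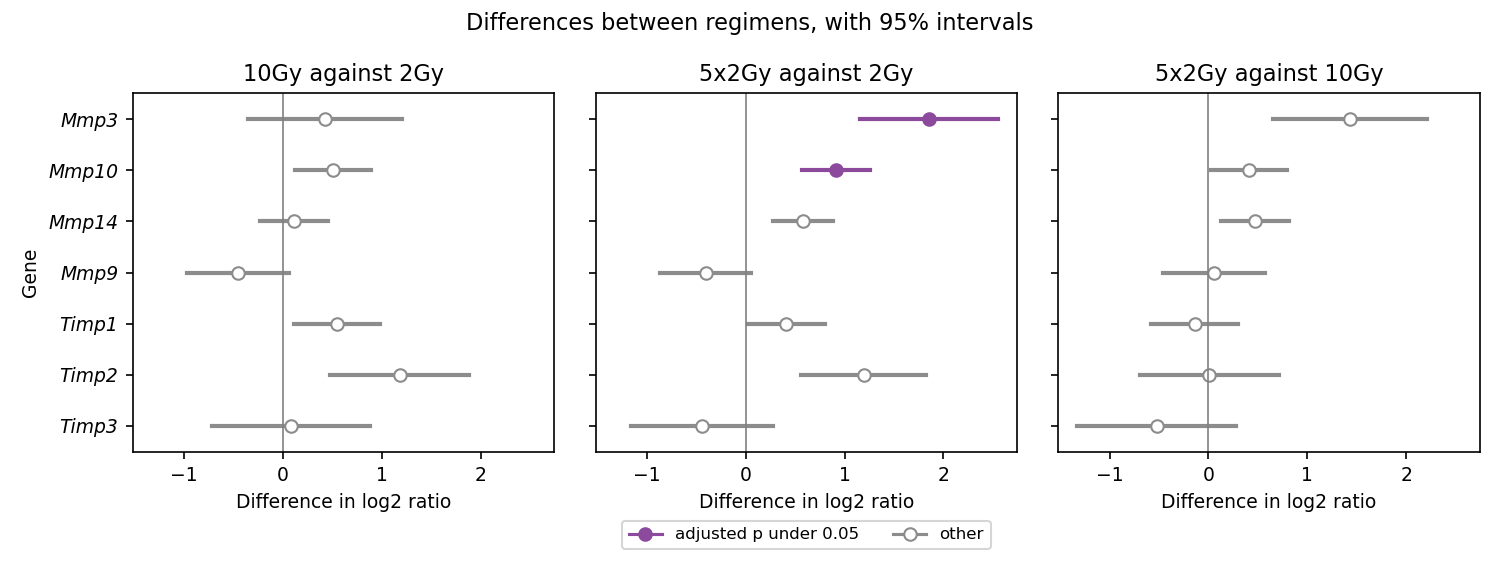
Difference in log2 ratio between regimens (x axis, first-named minus second-named) for the 7 genes tested (y axis), as points with limma's 95% intervals. Filled symbols are differences with an adjusted p under 0.05, which are Mmp3 (1.86) and Mmp10 (0.91) for 5x2Gy against 2Gy.

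Within a slide, regimens could be compared through 1 array of 10Gy on each, without a test. On slide 1, 10Gy replicate 1 minus the 2Gy mean was -0.34 for Mmp3, 0.66 for Mmp10, 0.22 for Mmp14, 0.74 for Timp2, 0.78 for Timp3, 0.27 for Timp1 and -0.29 for Mmp9. On slide 2, the 5x2Gy mean minus 10Gy replicate 2 was 0.66 for Mmp3, 0.56 for Mmp10, 0.59 for Mmp14, -0.44 for Timp2, 0.18 for Timp3, -0.42 for Timp1 and 0.23 for Mmp9. Across slides, 10Gy replicate 2 minus 10Gy replicate 1 was 1.53 for Mmp3 and -1.40 for Timp3. With slide as a block, the difference of 5x2Gy and 2Gy was 0.32 for Mmp3 (limma adjusted p = 0.32), 1.22 for Mmp10 (0.0079), 0.81 for Mmp14 (0.031) and 0.30 for Timp2 (0.66). These values rest on the same 2 10Gy arrays, so they do not separate slide from regimen.

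Across the 8 arrays, the log2 ratios of the genes called at least once were set against those of 13310 other genes, as a description, since the arrays share slides and regimens. The genes most like Mmp3 by Pearson's r were Med15 (0.99), Foxp4 (0.99) and Nrip1 (0.99), and those most like Mmp10 were Wars (0.99), Mier2 (0.97) and R3hdm4 (0.97). Arl1 (0.99), Dck (0.96) and Dip2a (0.95) were most like Mmp14, and Nol6 (0.99), Ovch2 (0.99) and Nle1 (0.98) were most like Timp2. For Mmp9 these were Txndc11 (0.97), Rras (0.96) and Tnip1 (0.96), and for Timp1 they were Tnfrsf21 (0.98), Olfr229 (0.98) and Sap30bp (0.98). Likeness of pattern did not mean likeness of size, since the mean log2 ratio after 5x2Gy was 0.58 for Med15 against 1.23 for Mmp3. Among the genes themselves, r was highest for Timp1 with Timp2 (0.95), Mmp10 with Mmp14 (0.84), Mmp10 with Timp2 (0.76) and Mmp3 with Mmp14 (0.75). For Mmp3 with Mmp10 it was 0.72. It was lowest for Mmp9 with Timp1 (-0.88), Mmp9 with Timp2 (-0.79) and Mmp3 with Timp3 (-0.75).

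The counts of 6 lists of related genes are given beside 17.1%, 28.4% and 41.2% of all genes called after 2Gy, 10Gy and 5x2Gy. Of the other metalloproteinases and Timp4, 6 could be tested, and 2, 2 and 3 of them were called. Mmp19 rose in all 3 regimens, by 0.48 ± 0.12 after 2Gy, 0.67 ± 0.14 after 10Gy and 1.09 ± 0.12 after 5x2Gy (limma adjusted p = 0.021, 0.0082 and 0.00028). Mmp24 fell by 0.31 after 2Gy, Timp4 fell by 0.46 after 10Gy, and Mmp23 and Mmp17 fell by 0.69 and 0.40 after 5x2Gy (limma adjusted p = 0.032, 0.019, 0.0025 and 0.014). Of 17 genes for activators and inhibitors of proteolysis at the cell surface, 2 rose and 4 fell after 2Gy, 2 rose and 1 fell after 10Gy, and 5 rose and 4 fell after 5x2Gy, or 6, 3 and 9 called when 17.1%, 28.4% and 41.2% of all genes were. Serpine2, which encodes the thrombin and urokinase inhibitor protease nexin-1, rose by 2.69 ± 0.36 after 10Gy and 1.84 ± 0.30 after 5x2Gy (limma adjusted p = 0.001 and 0.0015), with 3.75 and 1.64 on the 10Gy arrays. The genes of the urokinase and tissue plasminogen activators, Plau and Plat, fell by 0.41 and 0.49 after 2Gy (limma adjusted p = 0.031 and 0.043). Pcsk5, a proprotein convertase, rose in all 3 regimens (0.63, 0.52 and 0.60; limma adjusted p = 0.0093, 0.028 and 0.0043), and Furin, a convertase that can activate pro-MMP14, rose by 0.64 after 5x2Gy (0.0046).

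Of 9 genes for cathepsins, proteases of the lysosome, and for cystatins, inhibitors of cysteine cathepsins, 2 rose after 2Gy, 4 after 10Gy and 8 after 5x2Gy, where 1 fell, beside 9.09%, 12.5% and 17.7% of all genes called higher. The medians were 0.38, 0.21 and 0.50 beside -0.004, -0.06 and -0.02 over all genes. Ctsd, an aspartic protease, rose by 1.39 ± 0.21 after 10Gy and 1.19 ± 0.17 after 5x2Gy (limma adjusted p = 0.0016 and 0.00093), and Ctsb by 0.75 ± 0.13 after 5x2Gy (0.0022). The gene that fell was Ctsk (-0.42 ± 0.14 after 5x2Gy; limma adjusted p = 0.037). Of 13 ADAM and ADAMTS genes, 1 fell after 2Gy, 1 rose and 3 fell after 10Gy, and 3 rose and 2 fell after 5x2Gy, beside 17.1%, 28.4% and 41.2% of all genes. Adam10, a sheddase, fell by 0.66 ± 0.11 after 10Gy and by 0.44 ± 0.09 after 5x2Gy (limma adjusted p = 0.0024 and 0.0041).

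Of 25 genes for matrix proteins, 3 rose and 2 fell after 2Gy, 4 rose and 3 fell after 10Gy, and 8 rose and 5 fell after 5x2Gy, so that 5, 7 and 13 were called when 17.1%, 28.4% and 41.2% of all genes were. Vcan, a proteoglycan, rose by 0.83 ± 0.19 after 10Gy and 1.12 ± 0.16 after 5x2Gy (limma adjusted p = 0.012 and 8e-04), and Col6a1 rose in all 3 regimens (0.59, 0.54 and 0.88; limma adjusted p = 0.0047, 0.0093 and 0.00033). Lamc1, a laminin chain, fell by 0.67 ± 0.10 after 2Gy and by 0.66 ± 0.13 after 10Gy (limma adjusted p = 0.0036 and 0.0047). Of 16 genes for AP-1, ETS and Runx factors, 1 rose after 2Gy, 2 rose after 10Gy, and 2 rose and 3 fell after 5x2Gy, or 1, 2 and 5 called, against the same percentages. The ETS factor Etv1 rose by 1.01 ± 0.23 after 2Gy and 1.38 ± 0.23 after 5x2Gy (limma adjusted p = 0.018 and 0.0018). The AP-1 genes Fosb (0.59) and Junb (0.91) rose after 10Gy (limma adjusted p = 0.0074 and 0.047), with 1.75 and 0.08 on the 10Gy arrays for Junb, and Ets1 and Egr1 fell by 0.47 and 0.89 after 5x2Gy (0.0053 and 0.014). Limma called no gene of these 6 lists between regimens.

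**Figure D4:**
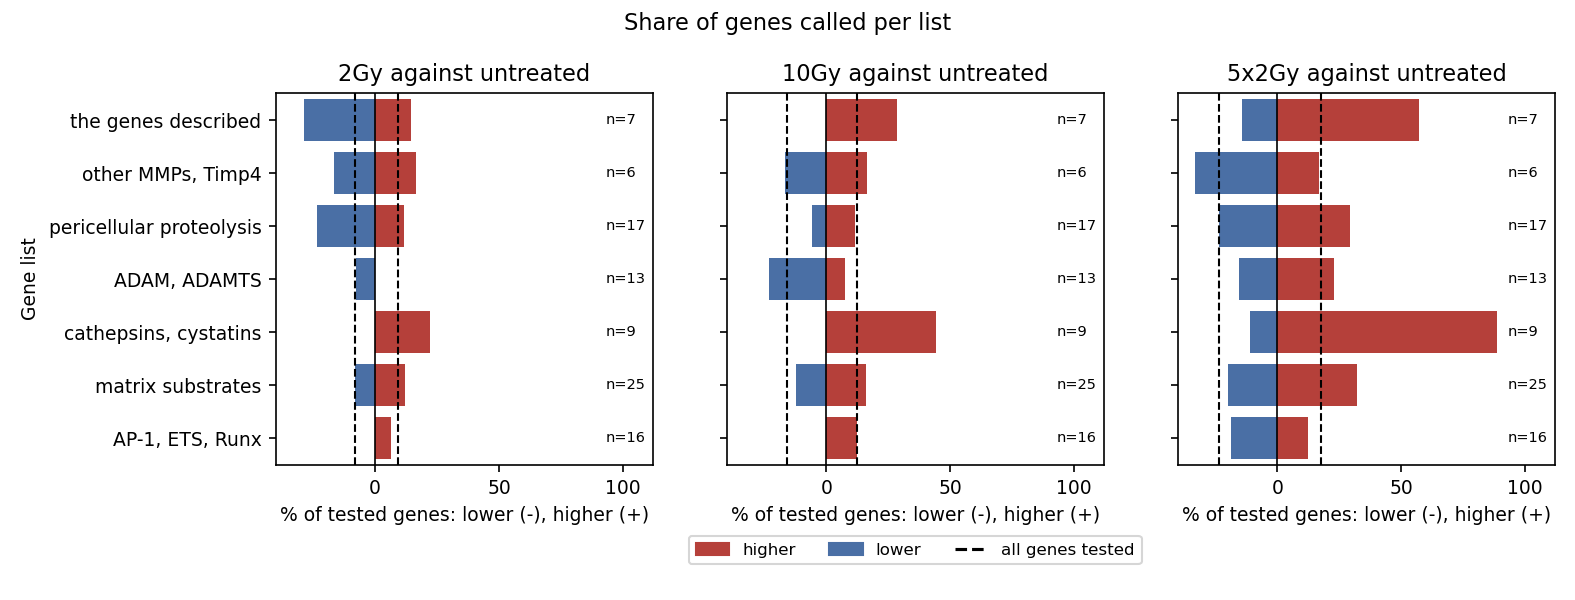
Percentage of tested genes called higher (bars to the right of 0) and lower (bars to the left) in irradiated than in untreated cells, by gene list (y axis) and regimen (panels), with the number tested at the right edge and dashed lines at the percentages over all genes tested. After 5x2Gy, 8 of 9 cathepsin and cystatin genes and 4 of the 7 metalloproteinase and TIMP genes were called higher, when 17.7% of all genes were.

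Some markers of other cell types also changed. Cd14 and Cd68, which myeloid cells express, rose after 5x2Gy (0.57 and 0.84; limma adjusted p = 0.017 and 0.013), Cd14 also rose after 2Gy (0.62; 0.026) and Cd68 after 10Gy (1.22; 0.0085), while the other 4 leukocyte markers stayed below background. The summed signal of the 6 leukocyte markers before normalization was 5881 to 9159 in 2Gy, 7465 to 8091 in 10Gy and 4073 to 4644 in 5x2Gy cells, against 4372 to 6285 in untreated cells. The fibroblast marker Dcn rose after 5x2Gy (1.21; limma adjusted p = 0.0039). The Dcn probe brightest in untreated cells was not above the negative controls in that channel on any array. The summed signal of the 5 fibroblast markers before normalization was 930 to 1236 in 5x2Gy cells and 1336 to 1859 in untreated cells. The endothelial sum was likewise 633.5 to 755.5 against 1191 to 1669. Thresholds on the 5x2Gy arrays were 236 to 299 in the irradiated and 346 to 371 in the untreated channel. Sums before normalization are therefore not read as shares of cell types. The epithelial marker Krt18 fell in all 3 regimens, by 0.48, 0.89 and 0.63 after 2Gy, 10Gy and 5x2Gy (limma adjusted p = 0.032, 0.0034 and 0.0044). Krt19 fell by 0.87 after 10Gy and Krt8 rose by 0.77 after 5x2Gy (limma adjusted p = 0.011 and 0.0021), and 10Gy minus 2Gy was -1.29 for Krt19 (0.04). The summed signal of the 6 epithelial markers was 28020 to 35380 in 2Gy, 23220 to 23320 in 10Gy and 22110 to 30340 in 5x2Gy cells, against 21780 to 36480 in untreated cells. The alveolar markers Sftpb and Scgb1a1 fell by 0.40 and 0.34 after 5x2Gy (limma adjusted p = 0.02 and 0.037) at signals close to background, and the mesenchymal marker Snai2 fell by 1.02 after 10Gy (0.0046). The part of these markers in the changes of the metalloproteinase and TIMP genes was not tested.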

How the data were processed

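Total RNA of irradiated and untreated LLC1 cells was amplified, labelled and hybridised to 2-colour arrays, per the labels' protocols. The deposited scanner files hold an intensity per spot and channel, quantified with ImaGene 9.0, with no background correction, normalization or log scale, per the file headers. The deposited series matrix holds log2 ratios per probe, with no statement of how the authors made them. Set against loess ratios of the same arrays without background correction, its columns gave r of 0.998 to 1.000 across probes, slopes of 0.993 to 0.999 and medians of -0.00454 to 0.00867, so they are Cy5 over Cy3. The array files and labels used here name no genome build, and the promoter coordinates are those of the RefSeq table (GRCm38.p6).

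In limma 3.58.1 (R 4.3.3), mean signals were corrected with normexp (offset 50), and loess, giving control spots weight 0, normalized every array by itself. Spots of a probe were averaged. Of 41174 probes, 21494 exceeded the negative controls and carried 13311 gene symbols. RefSeq accessions gave 27894 probes a current symbol, and other probes kept that of the file. The probe with the highest mean intensity stood for a gene. One mean per regimen was fitted over all 8 arrays (lmFit, eBayes), called at an adjusted p under 0.05, with 6 comparisons in all. The procedure was tested on simulated data. Bounds are the mean of the measured side against the mean of the higher of the detection level and the probe's own value, after loess and Aquantile normalization.

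The genes, the lists and the tests were chosen with earlier results of these data known. Named genes are the 9 members, up to 4 called genes of smallest p per list and regimen, the 3 genes most like each called member, and Ccng1, Cdkn1a and Mdm2. Ctsk, Furin, Plat and the markers that are named were chosen after their values were seen. One called gene of a list is counted but not reported here by name. Alternatives changed the background correction, normalization, detection filter, choice of probe, flags, slide or replicate blocks, weights and arrays. The number of arrays limits the precision.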

Additional observations from a re-analysis of the deposited data

Results flagged for a closer look

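For 2 of the genes, a test of the difference between regimens passed the threshold. The log2 ratio of Mmp3 was higher by 1.855 on the 5x2Gy arrays (1.19 to 1.28) than on the 2Gy arrays (-0.76 to -0.55), with an adjusted p of 0.036 by limma. With slide as a block the difference was 0.32 (limma adjusted p = 0.32), and no slide held both regimens.

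The log2 ratio of Mmp10 was higher by 0.9146 on the 5x2Gy arrays (0.28 to 0.42) than on the 2Gy arrays (-0.71 to -0.30), with an adjusted p of 0.036 by limma. With slide as a block the difference was 1.22 (limma adjusted p = 0.0079). The irradiated signal was above the negative controls on 2 of 3 5x2Gy arrays and on 0 of 3 2Gy arrays.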

How the results depend on the processing

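Mmp14 after 5x2Gy stayed called in 25 of 25 alternatives (0.86 to 1.14), Mmp3 after 5x2Gy in 24 of 25 (0.46 to 1.28), Timp2 after 5x2Gy in 23 of 24 and Timp2 after 10Gy in 22 of 23. Of the recomputed log2 changes of single genes, 39 had the other sign, 2 of them with a value past the threshold, 52 passed the threshold newly and 55 no longer passed it. The change of Mmp3 after 10Gy turned to 0.567 without 10Gy replicate 1 (-0.9667 without replicate 2). That of Timp3 after 5x2Gy turned to 0.5769 with slide as a block, where the slide term rests on the 2 10Gy arrays. The 3 genes called after 2Gy became 0 with slide as a random block (0.158% of all genes) and 6 with array weights (54.8%). They became 6 without both 10Gy arrays (40.6%), and 0 to 3 with 1 of the 2Gy or 5x2Gy arrays left out (3.08% to 12.7%). The 2 called after 10Gy became 1 of the 5 genes still tested without flagged spots (27.6%). With slide as a fixed block they became 4 (49%), and as a random one 1 (11%). They became 0 with array weights (1.68%) and 1 with the 10Gy arrays alone (2.13%). With any 1 of the 2Gy or 5x2Gy arrays left out they stayed 2 (22% to 24.4%). The 5 called after 5x2Gy became 3 with scale normalization (29.9%) and 1 with slide as a random block (6.18%). When both channels had to pass on 6 arrays, 3 of the 4 genes still tested were called (41.5%). With 1 of the 2Gy or 5x2Gy arrays left out the count was 3 to 5 (22.6% to 38.1%). For 10Gy against 2Gy the count of 0 became 2 with slide as a fixed block (32.4%) and 2 as a random one (21.9%). It stayed 0 with any 1 of the 2Gy or 5x2Gy arrays left out (0% to 0.0376%). For 5x2Gy against 2Gy the count of 2 became 1 of 4 genes tested when both channels had to pass on 6 arrays (1.42%). It became 1 of 5 tested without flagged spots (1.27%) and 1 with slide as a random block (1.89%). With array weights it was 7 (45.3%), and with only the compared arrays, or without both 10Gy arrays, it was 5 (30.2%). With any 1 of the 2Gy or 5x2Gy arrays left out it was 0 (0% of all genes). For 5x2Gy against 10Gy the count of 0 became 2 at most with 1 array left out (43.5%). Leaving out flags, probes or arrays leaves fewer values to test, and otherwise the cause was not tested. The fit without both 10Gy arrays was chosen after the data had been seen. Array weights were 0.188 for both 10Gy arrays.

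Replicate numbers were not read as pairs, since deviations of arrays with the same number correlated at -0.24 to 0.12. With the number as a replicate block, the counts were 2 after 2Gy, 2 after 10Gy, 4 after 5x2Gy and 0 in each comparison of regimens, when 10.7%, 17.2%, 35.6% and 0% of all genes were called. The percentage of all genes called ranged from 0.158 to 54.8 after 2Gy, 1.68 to 49 after 10Gy and 6.18 to 67.1 after 5x2Gy over the alternatives, and for 10Gy against 2Gy, 5x2Gy against 2Gy and 5x2Gy against 10Gy from 0 to 32.4, 45.3 and 43.5. Counts called in the 6 related lists moved by over 1.5 times in 174 recomputations and did not in 270, and after 2Gy the cathepsins and cystatins ranged from 0 to 6 (2 in the report) and the ADAM and ADAMTS genes from 0 to 7 (1), whereas after 5x2Gy the matrix genes ranged from 1 to 19 (13). Median centring in place of loess moved the median of all genes after 2Gy to 0.127, against -0.004 with loess, and 22.4% of genes were then called higher out of 27.3% called, against 9.09% out of 17.1% with loess. Dim probes limit Mmp9, Mmp10 and Timp3, and Mmp2 and Mmp13 gave no value.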
